A study of Mus musculus with 4 samples.

Results

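The Hox cluster genes encode homeodomain transcription factors that lie in 4 clusters, HoxA, HoxB, HoxC and HoxD, on mouse chromosomes 6, 11, 15 and 2. The 38 genes described here were chosen by name and found by their Entrez gene number, and all 38 had a row in the deposited table of 24116 genes. They comprise 10 HoxA, 10 HoxB, 9 HoxC and 9 HoxD genes. RNA-seq reads were counted per gene in 4 libraries of mouse embryonic stem cells of the strain labelled 12910la, 2 from wild-type cells and 2 from cells that the titles call a Kdm2a knockout, to learn how RNA levels respond to losing KDM2A, a histone H3K36 demethylase. The genotype field of those last samples calls Kdm2a knocked down instead, which the labels do not settle. Both groups were grown on gelatin in medium with serum and LIF. The Kdm2a line goes back to 1 clone, made with a guide RNA and sorted for GFP, so a property of the clone and an effect of the genotype cannot be told apart. Nothing in the labels says that libraries came from separate cultures, so the p-values measure the spread of these 4 libraries alone, and that spread may be technical.

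In the embryo, Hox genes give cells their position along the body axis. Genes at the 3′ end of a cluster, with low numbers, are switched on early and act towards the head, while genes at the 5′ end, with high numbers, are switched on late and act towards the tail. Genes with the same number in different clusters are paralogs. In embryonic stem cells the clusters are known as targets of Polycomb repression and are largely silent until differentiation, for example with retinoic acid. KDM2A and its relative KDM2B carry a zinc finger that binds CpG dinucleotides free of methylation, the kind of DNA found at many Hox promoters.

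The sequences directly upstream of 4 Hox genes show how many CpG dinucleotides lie there, but not whether these are methylated. They were picked to set members with different read counts side by side. Hoxd13 and Hoxd1 had more than 3 counts in all 4 libraries, Hoxc4 had the lowest p-value of the tested members, and Hoxa6 had no count. Each line gives the 250 bases before the annotated start, 5′ to 3′ on the gene's strand, from RefSeq on GRCm38.p6, with every CG dinucleotide in capitals. The windows are chr2:74667975-74668224 for Hoxd13, chr2:74762730-74762979 for Hoxd1, chr15:103034145-103034394 for Hoxc4 and chr6:52208673-52208922 (minus strand) for Hoxa6. The Hoxc4 window lies inside the annotated span of that gene, before a downstream start.
Hoxd13: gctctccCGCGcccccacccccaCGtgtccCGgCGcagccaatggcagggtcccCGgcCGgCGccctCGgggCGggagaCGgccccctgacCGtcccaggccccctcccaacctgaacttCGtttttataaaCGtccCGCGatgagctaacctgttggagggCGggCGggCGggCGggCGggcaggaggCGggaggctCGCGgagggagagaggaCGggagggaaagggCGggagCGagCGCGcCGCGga
Hoxd1: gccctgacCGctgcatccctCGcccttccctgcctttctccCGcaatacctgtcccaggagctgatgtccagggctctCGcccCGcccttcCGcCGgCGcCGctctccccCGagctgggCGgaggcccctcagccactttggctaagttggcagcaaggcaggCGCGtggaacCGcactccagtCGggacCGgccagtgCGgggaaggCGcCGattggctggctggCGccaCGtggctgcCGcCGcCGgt
Hoxc4: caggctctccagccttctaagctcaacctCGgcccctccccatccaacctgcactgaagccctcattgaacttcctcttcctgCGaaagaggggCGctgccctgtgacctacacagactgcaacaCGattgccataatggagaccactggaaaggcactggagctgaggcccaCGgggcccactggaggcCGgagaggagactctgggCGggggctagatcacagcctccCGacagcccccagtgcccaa
Hoxa6: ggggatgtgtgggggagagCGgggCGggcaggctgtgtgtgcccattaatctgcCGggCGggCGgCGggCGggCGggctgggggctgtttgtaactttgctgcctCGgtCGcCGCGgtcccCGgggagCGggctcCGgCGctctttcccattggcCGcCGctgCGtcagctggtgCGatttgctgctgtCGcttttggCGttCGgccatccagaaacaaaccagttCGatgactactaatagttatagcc

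These windows hold 31 CG dinucleotides upstream of Hoxd13, 24 upstream of Hoxd1, 8 upstream of Hoxc4 and 24 upstream of Hoxa6. Thus the gene with no count and a gene counted in every library had the same number. Over the 300 bases around the start, 22 of the 38 members had an entry in the RefSeq promoter table. With 1 entry per member, the first listed, they carried a median of 13.5 CG dinucleotides. The median was 7 over all 32851 promoters of the table, which were not reduced to 1 per gene, and 94.6% of these hold at least 1. The members ranged from 4 to 45, and 18 of 22 lay above the median of all promoters. Hoxa13, at no more than 3 counts in each library, had the most. The CG dinucleotide reads the same on both strands, and its number says nothing of methylation or of binding by KDM2A.

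Kdm2a RNA, given first as the check of the labels, was not lower where the gene is labelled as lost. It had 2899 and 3554 counts in wild type and 3710 and 4753 in the libraries called here, after their labels, knockout 1 and knockout 2 (log2 fold change 0.44, SE 0.244, edgeR quasi-likelihood adjusted p = 1.00). Reads over a whole gene do not show whether a guide RNA stopped the protein, so the directions reported take the labels as they stand. Across genes, which are not replicates, knockout 1 correlated better with wild type 1 (r = 0.984) and wild type 2 (r = 0.978) than with knockout 2 (r = 0.952). Library totals ran from 18844246 to 19056529 counts.

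Few Hox genes were counted throughout. Of 38 members, 3 had no count in any library (Hoxa6, Hoxb2 and Hoxb6), a further 12 had no more than 3 counts in each, 15 exceeded 3 counts in some libraries, and 8 exceeded 3 counts in all 4. The limit of 3 counts is the upper limit commonly set for a count of 0 (the exact Poisson 95% intervals given for other counts would end at 3.69 for a count of 0), and stands for 0.155 to 0.165 CPM (counts per 1000000 reads, with libraries scaled by TMM). It covers counting error only, since PCR copies are counted as separate reads. Of all genes in the table, 59.2% exceeded 3 counts in all 4 libraries, against 21.1% of the Hox genes, and 32.6% stayed at or under 3 counts in each, against 39.5%. Genes without any count were 22.4% of the table but only 3 of the 38 members. All members together had 590 and 370 counts in wild type and 425 and 523 in the libraries labelled knockout, which is 0.00196% to 0.00310% of a library.

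**Figure D1:**
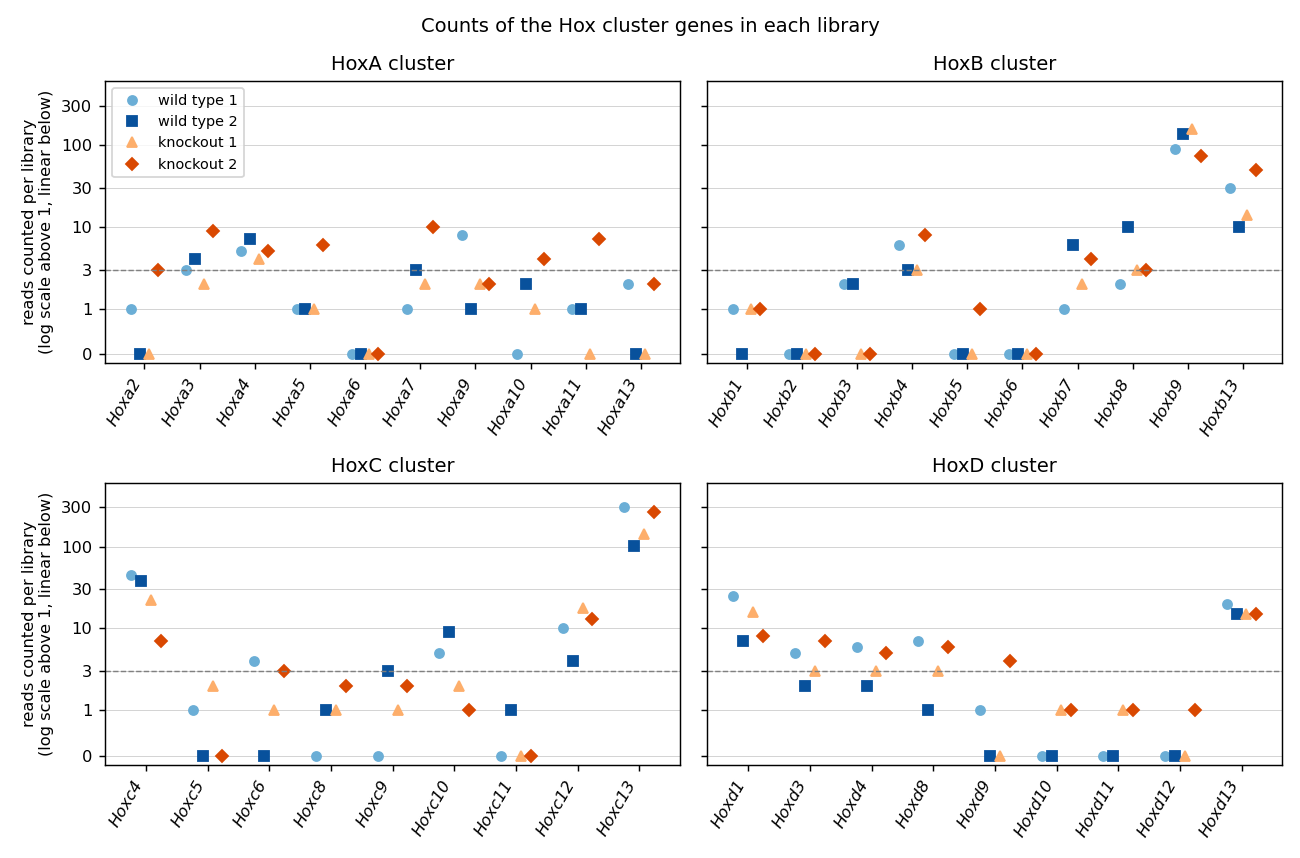
Reads counted for each of the 38 Hox genes, by cluster and in order of gene number, with 1 symbol per library (vertical axis in counts, logarithmic above 1 and linear below). The dashed line marks 3 counts, and Hoxb9, Hoxb13, Hoxc4, Hoxc12, Hoxc13, Hoxd1, Hoxd13 and Hoxa4 are the 8 genes that lie above it in all 4 libraries.

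Of the 10 HoxA genes studied, only Hoxa4, which acts in the neck region of the axis, exceeded 3 counts in all 4 libraries, with 5 and 7 counts in wild type and 4 and 5 in the libraries labelled knockout. Hoxa3, needed for the thymus and neck structures, had 3, 4, 2 and 9 counts in wild type 1, wild type 2, knockout 1 and knockout 2, the order used for all counts that follow. Hoxa5, a regulator of lung and neck patterning, had 1, 1, 1 and 6. The pattern of few counts in 3 libraries and more in knockout 2 recurred further along the cluster. Hoxa7 had 1, 3, 2 and 10 counts, Hoxa10, which patterns the uterus and lumbar spine, had 0, 2, 1 and 4, and Hoxa11, needed for forearm bones, had 1, 1, 0 and 7. Hoxa9, known for its part in blood progenitors, was instead highest in wild type 1, with 8, 1, 2 and 2. Hoxa2 of the hindbrain and Hoxa13 of the digits stayed at 3 counts or fewer. None of these 10 had enough counts to be tested.

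In the HoxB cluster, the counts lay at the 5′ end. Hoxb9, a gene of the rib-bearing axis, had 90, 135, 158 and 72 counts and held 73.7% of the cluster's reads. Hoxb13, which acts in the tail bud and later in the prostate, had 30, 10, 14 and 49, with knockout 2 highest and wild type 2 lowest. Their neighbours were far lower. Hoxb8 had 2, 10, 3 and 3 counts, Hoxb7 had 1, 6, 2 and 4, and Hoxb4, a regulator of blood stem cells, had 6, 3, 3 and 8. Hoxb1, the hindbrain gene at the 3′ end, had 1 count or none in each library. Hoxb3 and Hoxb5 did not exceed 2 counts. On the GRCm38.p6 assembly Hoxb13 lies 74720 bases from Hoxb9, the nearest member, while Hoxb9 lies 2806 bases from Hoxb8.

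The HoxC cluster held the most reads, 1009 of 1908 over all members and libraries. Hoxc13, a regulator of hair and nail keratin genes at the 5′ end of the cluster, had 307, 102, 143 and 261 counts and so was high in wild type 1 and knockout 2. Hoxc12, beside it, had 10, 4, 18 and 13. At the 3′ end, Hoxc4 had 45, 38, 22 and 7 counts, the only one of these 3 in which both wild-type libraries stood above both others. Between the ends, Hoxc10, a gene of the lumbar axis and hindlimb, had 5, 9, 2 and 1 counts, Hoxc6 had 4, 0, 1 and 3, and Hoxc5, Hoxc8, Hoxc9 and Hoxc11 did not exceed 3.

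In the HoxD cluster, the members at both ends were counted in every library. Hoxd13, a regulator of digits and genitalia at the 5′ end, had 20, 15, 15 and 15 counts, the smallest spread of the tested members. Hoxd1, at the 3′ end, had 25, 7, 16 and 8. Inside the cluster, Hoxd8 had 7, 1, 3 and 6 counts, Hoxd9 had 1, 0, 0 and 4, and Hoxd10, Hoxd11 and Hoxd12, which act in limb patterning, had 1 count or none per library. Hoxd3 had 5, 2, 3 and 7 counts and Hoxd4 had 6, 2, 3 and 5. In GENCODE vM21, Hoxd3 and Hoxd4 share 62.8% and 52.3% of their exonic bases with other genes, so their separate counts are uncertain. In total 15 members share exonic bases with another gene, on either strand, and the strand setting of the counting is not given in the sources used here. None of the 7 tested members is among them.

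By gene number, reads concentrated in paralog group 13, whose 4 members held 985 of the 1908 counts. Of that group Hoxb13, Hoxc13 and Hoxd13 exceeded 3 counts in all 4 libraries and Hoxa13 in none. Group 9 followed with 479 counts, 455 of them from Hoxb9. In groups 4 and 7 every member studied exceeded 3 counts in some library, with 169 and 29 counts in all. Groups 2, 5, 6 and 11 had 4, 13, 8 and 12 counts in total. A shared number did not bring a shared level, since within groups 9 and 13 a single gene held most of the reads.

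Per kilobase of exon, Hoxc13 and Hoxb9 stood above the other members. Hoxc13 lay between 2.15 and 6.51 CPM per kilobase over the 4 libraries and Hoxb9 between 1.54 and 3.21, so these ranges overlapped. The next genes in order of mean were Hoxb13 (0.235 to 1.22), Hoxc12 (0.201 to 0.912), Hoxc4 (0.150 to 0.915), Hoxd1 (0.195 to 0.701) and Hoxd13 (0.313 to 0.421), whose ranges overlapped one another but not that of Hoxb9. Hoxa4 came last of the 8, at 0.131 to 0.228 CPM per kilobase. For scale, Pou5f1, which encodes the stem cell factor OCT4, averaged 430.5 CPM per kilobase.

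The 7 members with most reads are, on GRCm38.p6 and all on the plus strand, Hoxb13 (Entrez 15408, chr11:96194316-96196610), Hoxb9 (15417, chr11:96271330-96276595), Hoxc13 (15422, chr15:102921131-102928814), Hoxc12 (15421, chr15:102936826-102938609), Hoxc4 (15423, chr15:103018097-103036856), Hoxd13 (15433, chr2:74668225-74671603) and Hoxd1 (15429, chr2:74762980-74765142). The comparison by genotype could be made for these 7, those that passed the filter on low counts in edgeR (filterByExpr). None passed the test. The edgeR quasi-likelihood test called 0 of 7 members at an adjusted p under 0.05, and its background over all 14194 tested genes was also 0%. At an unadjusted p under 0.05 it had 0 of 7 members against 1.7% of all genes. DESeq2 called 0 of the 7 as well. The median log2 fold change, libraries labelled knockout over wild type, was 0.03 over the 7 members and 0.00289 over all tested genes, with 4 positive and 3 negative. These 7 passed because they had reads, and they do not stand for the other 31.

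Hoxc4 had the lowest p-value of the tested members. It stood at 2.35 and 1.97 CPM in wild type and at 1.15 and 0.385 CPM in knockout 1 and 2. Its means of 2.16 ± 0.269 and 0.767 ± 0.54 CPM (SD, n = 2 each) gave a log2 fold change of -1.48 (SE 0.707), with an adjusted p of 1.00 by edgeR's quasi-likelihood test (unadjusted p = 0.0745). Within the libraries labelled knockout it differed 2.99-fold between knockout 1 and knockout 2. Both of these lay below both wild-type libraries, as in 12.7% of all tested genes. Its log2 fold change was -0.90 without knockout 2 and -2.47 without knockout 1 (edgeR quasi-likelihood unadjusted p = 0.0183, adjusted p = 0.271).

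Hoxc12 lay on the other side, at 0.522 and 0.207 CPM in wild type and 0.940 and 0.714 CPM in knockout 1 and 2. From means of 0.365 ± 0.223 and 0.827 ± 0.16 CPM (SD, n = 2 each), its log2 fold change was 1.17 (SE 0.766), short of the threshold in edgeR (quasi-likelihood adjusted p = 1.00). Both libraries labelled knockout exceeded both wild-type ones, as in 11.6% of all tested genes, but the counts of 4 to 18 leave wide counting intervals (1.09 to 10.2 for wild type 2 and 10.7 to 28.4 for knockout 1, exact Poisson, 95%). Its neighbour Hoxc13 did not share this order. With 102 counts (83.2 to 123.8) in wild type 2 and 307 (273.6 to 343.3) in wild type 1, the libraries of that 1 label differed 3.03-fold in Hoxc13 CPM, beyond counting error. The group means of Hoxc13 were 10.7 ± 7.6 and 10.9 ± 4.86 CPM (SD, n = 2 each), and its log2 fold change was 0.03 (SE 0.598).

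The remaining tested members also overlapped between the groups. Hoxb9 had means of 5.85 ± 1.62 (wild type) and 6.10 ± 3.04 (knockout) CPM (SD, n = 2 each), with knockout 1 highest and knockout 2 lowest. Hoxb13 averaged 1.04 ± 0.741 and 1.71 ± 1.39 CPM (SD, n = 2 each), a log2 fold change of 0.71 (SE 0.859) that became -0.50 without knockout 2. Hoxd1 averaged 0.834 ± 0.667 and 0.638 ± 0.28 CPM (SD, n = 2 each). Hoxd13 averaged 0.911 ± 0.189 and 0.804 ± 0.0288 CPM (SD, n = 2 each). The fold changes of Hoxb9, Hoxd1 and Hoxd13 were 0.06 (SE 0.516), -0.38 (SE 0.834) and -0.18 (SE 0.635). Each of these SEs exceeds the size of its fold change. Hoxc4 was not called either, at a log2 fold change of -1.48 (SE 0.707). Changes well beyond 1 SE could thus have gone undetected at this depth and number of libraries.

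**Figure D2:**
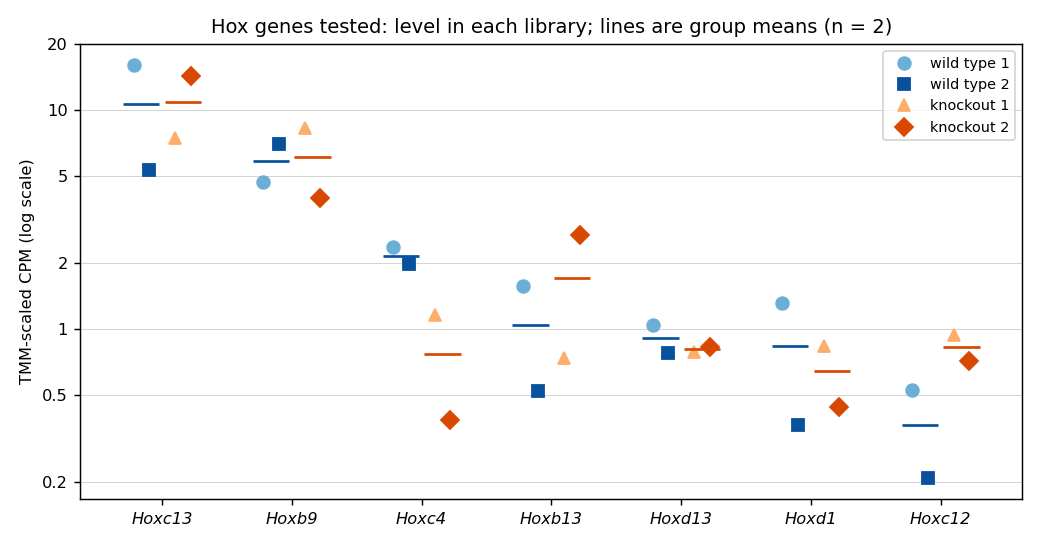
TMM-scaled CPM (logarithmic axis) of the 7 tested Hox genes in each library, with horizontal lines for the means of 2 libraries. Groups overlap for 5 genes, while Hoxc4 lies lower and Hoxc12 higher in both libraries labelled knockout.

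**Figure D3:**
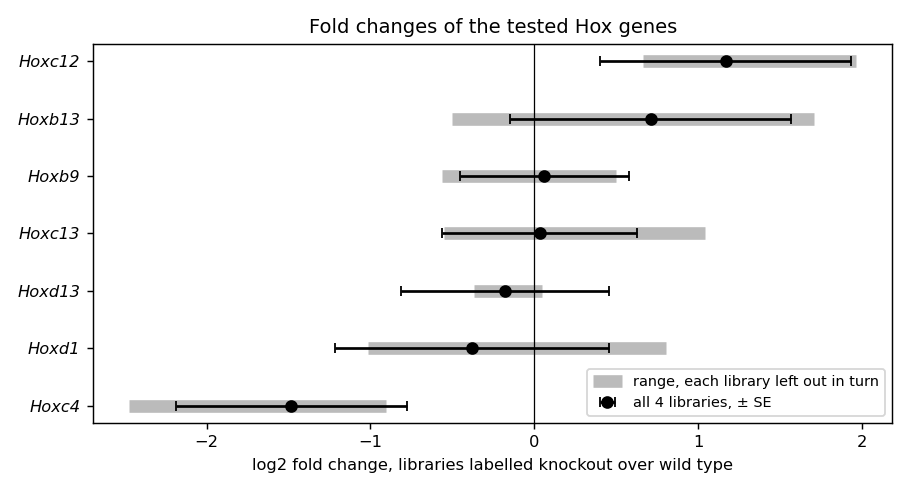
Log2 fold change of each tested Hox gene with its SE (black), and the range when each library is left out in turn (grey). The grey range stays on 1 side of 0 for Hoxc4 and Hoxc12 and crosses 0 for the other 5.

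The summed level of all members did not separate the groups. It was 30.8 and 19.2 CPM in wild type and 22.2 and 28.7 CPM in the libraries labelled knockout, with a log2 ratio of means of 0.03 against a spread of 0.39 (pooled SD of the log2 sums within groups). Wild type 1 and knockout 2 were the higher libraries. Most of the sum was Hoxc13 and Hoxb9, which held 66.5% of the counts.

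Below these few genes, knockout 2 had reads for more Hox genes than the other libraries. In it 32 members had a count and 19 exceeded 3 counts, against 27 and 15 in wild type 1, 25 and 12 in wild type 2, and 27 and 8 in knockout 1. Of all 24116 genes, 6988, 6781, 6944 and 6900 had no count in wild type 1, wild type 2, knockout 1 and knockout 2, fewest in wild type 2. Of the 50 other developmental homeobox genes, 8, 10, 13 and 4 had none, so these too were counted most widely in knockout 2. By cluster, HoxD had 6, 5, 7 and 9 members with a count and 5, 2, 2 and 6 above 3 counts, and HoxA had 8, 7, 6 and 9 and 2, 2, 1 and 6. In summed counts knockout 2 stood apart in HoxA, where the 10 genes together had 48 counts in knockout 2 (exact Poisson 95% interval 35.4 to 63.6), 22 (13.8 to 33.3) and 19 (11.4 to 29.7) in wild type, and 12 (6.20 to 21.0) in knockout 1. The interval of knockout 2 lies above the other three. Knockout 1 had the fewest, so this separates 1 library and not the genotype. The summed counts of the other clusters did not show it, since knockout 2 lay below wild type 2 and knockout 1 in HoxB and below wild type 1 in HoxC and HoxD.

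**Figure D4:**
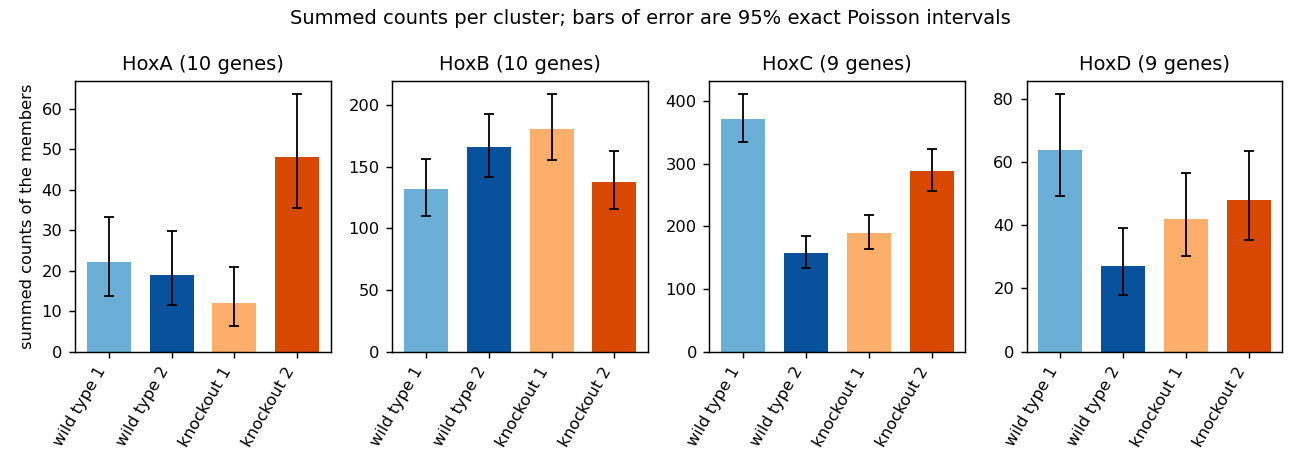
Summed counts of the members of each cluster in each library, with 95% exact Poisson intervals that cover counting error only. In HoxA, knockout 2 stands at 48 counts against 12 to 22 in the other libraries, while in HoxC and HoxD wild type 1 is highest.

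Markers of other cell types moved with knockout 2 in part. In bulk RNA, fewer cells of a type and less RNA per cell cannot be told apart. Markers of extraembryonic endoderm (8 genes) summed to 13.8, 6.58, 10.7 and 18.0 CPM, with 5 above 3 counts in all 4 libraries and Afp at 0 in all. Foxa2, at 1, 0, 1 and 59 counts, Sox7, at 5, 12, 11 and 60, and Dab2, at 15, 19, 22 and 35, were highest in knockout 2. Gata4, at 134, 50, 75 and 117 counts, and Gata6, at 52, 11, 48 and 27, were instead highest in wild type 1. Sox17, at 14, 3, 6 and 1, and Pdgfra, at 43, 32, 42 and 28, were lowest in knockout 2. Those of primitive streak and early mesoderm (10 genes) summed to 19.3, 20.3, 15.0 and 31.0 CPM, with 4 above 3 counts throughout and Msgn1 at 0 in 3 libraries. Most of that sum was Eomes, at 12.7, 16.6, 10.3 and 25.9 CPM. Tbx6, at 39, 36, 53 and 23 counts, was lowest in knockout 2. Fgf8, at 56, 9, 17 and 14 counts, and Mesp1 were highest in wild type 1. In CPM, T, Mixl1, Wnt3, Evx1, Lhx1 and Msgn1 were highest in knockout 2, at 16 counts or fewer. Neural markers (10 genes) summed to 132.0, 140.0, 174.8 and 171.7 CPM, with 6 above 3 counts throughout and Neurog2 at 0 in all. Pax6 was highest in knockout 2, with 89, 129, 123 and 251 counts, and Neurod1 lowest there, with 678, 294, 972 and 58. Fibroblast markers (12 genes), of interest because fibroblasts express many Hox genes, summed to 94.6, 40.6, 67.4 and 36.1 CPM, a sum lowest in knockout 2. Most of it was Pdgfrb, at 43.9, 16.6, 26.3 and 9.89 CPM, and Thy1, at 36.5, 16.4, 31.0 and 17.7 CPM. Pdgfrb and Col1a1 were lowest in knockout 2, Thy1 was lowest in wild type 2, and Twist1 was highest in knockout 2 (56, 30, 44 and 84 counts). Of the 12 genes, 5 exceeded 3 counts throughout, Lum was at 0 in all libraries, and Col3a1 and Dcn did not exceed 3 counts. Pdgfra is on both the endoderm and the fibroblast list. The part of these cells in the Hox counts was not tested. The embryonic stem cell markers were abundant throughout, with all 10 above 3 counts in all 4 libraries. Their summed levels were 5969 to 7439 CPM, lowest in knockout 2, but the genes were split. In CPM, Sox2, Klf4, Tdgf1, Dppa5a and Utf1 were lowest in knockout 2, whereas Esrrb was highest there. Nanog and Zfp42 were lowest in wild type 1, and Pou5f1 and Tfcp2l1 in wild type 2.

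Most genes around the clusters were far above the Hox genes in counts. The nearest protein-coding genes on either side, other than Hox and Evx genes, exceeded 3 counts in all 4 libraries at each of the 8 edges. Beside HoxA, Hibadh, an enzyme of valine breakdown, had 1584 to 2149 counts and Skap2 had 823 to 1094. Beside HoxC, Calcoco1 had 1214 to 1513 counts and Smug1, a DNA repair glycosylase, had 337 to 701. Lnpk and Mtx2 flank HoxD and had 696 to 981 and 573 to 760. HoxB lay between lower neighbours, Ttll6 with 36 to 260 counts and Skap1 with 7 to 18. Per kilobase of exon Skap1, at a mean of 0.0903 CPM, was lower than Hoxa4 at 0.174.

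The non-coding RNAs and Evx genes of the clusters mostly stayed at 3 counts or fewer. Of 18 found in the table, 9 had no count and 4 more did not exceed 3 counts in any library. Of the rest, 3 exceeded 3 counts in all 4 libraries and 2 in some. Halr1, a long non-coding RNA near the 3′ side of HoxA, was the most abundant, with 540, 979, 971 and 1349 counts. Halr1 had a log2 fold change of 0.66 (SE 0.355, edgeR quasi-likelihood adjusted p = 1.00). Its wild-type libraries stood at 28.2 and 50.7 CPM, and knockout 1, also at 50.7 CPM, fell between them, so the groups overlapped. Hotairm1, also of HoxA, had 12, 6, 15 and 4 counts, and Evx1, a homeobox gene beyond Hoxa13, had 1, 10, 1 and 16. Hottip and Hotair, long non-coding RNAs of the HoxA and HoxC clusters, did not exceed 1 count. The microRNA genes Mir10a, Mir10b, Mir196a-2, Mir196b and Mir615 had no count, whereas Mir196a-1, which lies between Hoxb9 and Hoxb13, had 5, 8, 19 and 5. Counts over such short genes in a library of longer RNA do not measure the mature microRNA.

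None of the tested genes related to Hox genes by position, family or regulation passed the test either. In the 7 related lists, DESeq2 called 0 of 82 tested genes. The edgeR quasi-likelihood test called 0 of the 82 as well (0 at an unadjusted p under 0.05). Without knockout 1 that test called 2 of 95, Lhx9 and Crabp1, and 91 of all 14714 genes then tested. Crabp1, which binds retinoic acid in the cell, had 1061, 518, 1001 and 81 counts. The cofactors of the PBX, MEIS and PKNOX families, which bind DNA together with HOX proteins, all exceeded 3 counts in all 4 libraries. Pbx2 and Pknox1 led them with wild-type means of 71.2 ± 12.3 and 33.2 ± 0.476 CPM (SD, n = 2), and their median log2 fold change over 9 genes was 0.38. Meis1 had 18, 10, 17 and 49 counts and Meis2 had 15, 85, 17 and 153, so both were highest in knockout 2.

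All 21 Polycomb genes and all 12 Trithorax and H3K27 demethylase genes, which keep Hox genes silent or active, exceeded 3 counts in all 4 libraries. Their median log2 fold changes were 0.06 and 0.04. Phc1, a subunit of Polycomb complex PRC1, averaged 890.6 ± 159.8 and 758.0 ± 146.7 CPM, and Jarid2, a partner of PRC2, 607.2 ± 188.4 and 716.4 ± 13.8 CPM (SD, n = 2 each). Rbbp4, a histone-binding subunit shared by several complexes, averaged 408.8 ± 0.951 and 413.2 ± 34.9 CPM. Among the activators the most abundant were Psip1 at 359.3 ± 88.1 and 374.1 ± 10.8 CPM, Ash2l at 296.8 ± 17.0 and 313.0 ± 53.9 CPM, and Wdr5 at 275.9 ± 0.255 and 255.4 ± 60.4 CPM (SD, n = 2 each).

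Genes of the signals that switch Hox genes on were unevenly present. In the retinoic acid list 12 of 17 genes exceeded 3 counts in all 4 libraries, led by the receptors Rarg (202.9 ± 45.3 and 279.5 ± 3.25 CPM), Rara (149.1 ± 5.41 and 138.7 ± 46.7 CPM) and Rxrb (68.0 ± 0.694 and 80.1 ± 2.58 CPM; SD, n = 2 each). Rarb and Cyp26a1, which retinoic acid itself induces, had only 2, 4, 5 and 15 and 3, 4, 4 and 12 counts, both highest in knockout 2. Other genes of the list were lowest there, such as Stra6, a retinol uptake receptor, with 25, 26, 13 and 8 counts, and Cyp26b1, which breaks retinoic acid down, with 18, 13, 23 and 3. Among caudal and ParaHox genes, which are related to Hox genes, Cdx1 had 278, 113, 295 and 248 counts and Cdx2 and Cdx4, known for driving posterior Hox genes in the embryo, had 0, 2, 1 and 0 and 0, 6, 0 and 3. Gsx2, a forebrain gene, had 34, 7, 18 and 208 counts, again highest in knockout 2 (log2 fold change 2.52, SE 1.19, edgeR quasi-likelihood adjusted p = 1.00).

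Hox genes were detected less widely than a list of 50 other developmental homeobox genes. Of those, 21 (42.0%) exceeded 3 counts in all 4 libraries and 11 (22%) stayed at 3 or fewer in each, against 21.1% and 39.5% of Hox genes. These shares describe the 2 lists, and their difference was not tested. The most abundant of the other homeobox genes were Six4, Otx2 and Gbx2, at wild-type means of 55.2 ± 11.4, 38.9 ± 24.4 and 32.4 ± 21.2 CPM (SD, n = 2). Some of these genes were highest in knockout 2, as Lhx9 had 1, 1, 0 and 99 counts, En1 6, 3, 0 and 50, and Six3 2, 0, 0 and 26. Others were lowest there, such as Otx1 with 20, 10, 6 and 1 counts, Lmx1a with 13, 20, 12 and 4, and Dlx4 with 16, 7, 18 and 4.

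**Figure D5:**
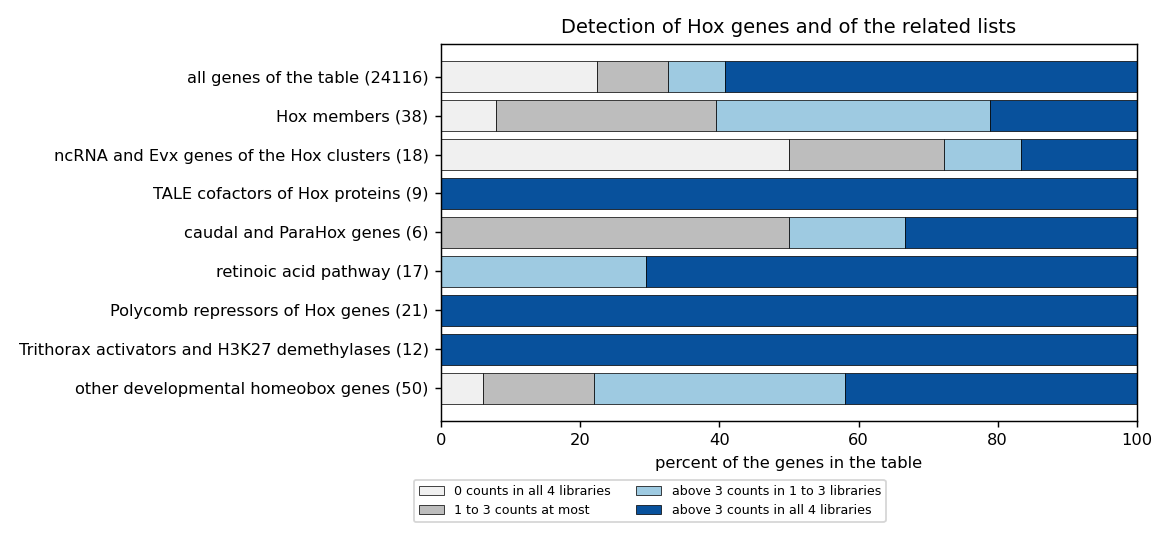
Share of genes (percent of those in the table, number in brackets) in 4 classes of detection, for all genes, the Hox members and the 7 related lists. Hox members have the bar segment above 3 counts in all 4 libraries at 21.1%, against 100% for the cofactors, Polycomb and Trithorax lists.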

How the data were processed

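RNA of 2 wild-type and 2 Kdm2a knockout libraries was measured. The authors deposited whole-number read counts per gene, made with HISAT2 and featureCounts on mm10, per the submitters' processing notes. Versions, annotation, strand setting and the treatment of reads with several matches: not given in the sources used here. Groups and replicate numbers came from sample titles. Hox rows were found through Entrez numbers in the RefSeq table of GRCm38.p6, which matched 24061 of 24116 genes. One further HoxA gene, and values of 1 gene that the naming rule took, are not reported here. Members, gene lists and tests were chosen with earlier results of these data known, and the genes flanking the clusters, the promoters shown and the CG counts after their values were seen.

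Counts were tested in edgeR 4.0.16 (R 4.3.3): filterByExpr, TMM scaling, quasi-likelihood F test on genotype, Benjamini-Hochberg adjustment over all 14194 tested genes, threshold 0.05. The SE was taken as the size of the log2 fold change over the root of F. The script was tested on simulated data. CPM is the count per 1000000 of the library total times its TMM factor. Exon lengths are exon unions from GENCODE vM21. No 2 libraries held the same counts (chi-square per degree of freedom at least 27.7). The rule for named genes took up to 20 members above 3 counts in any library, all tested members and the 3 most abundant genes of each list. Other genes named were chosen after their values were seen. Alternatives were 3 scalings, 2 filters, DESeq2 1.42.0, the edgeR likelihood ratio test, limma-voom (limma 3.58.1), a replicate block, other detection limits and each library left out.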

Additional observations from a re-analysis of the deposited data

How the results depend on the processing

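The count of 0 Hox genes called held under all 13 alternatives run, and that of related genes under all but 1 (2 genes without knockout 1). Over all genes, 2 were called by DESeq2 and 4 by the edgeR likelihood ratio test, and 0 to 91 when a library was left out (91 without knockout 1, 8 without knockout 2). With a replicate block, 0 Hox genes and 0 of all genes were called, and Hoxc4 was at -1.61 (unadjusted p = 0.0364). Libraries of the same number deviated together across genes (r = 0.35), but 2 pairs do not establish a pairing. Hox genes below detection in every library numbered 15 with a limit of 3 counts, 3 with a limit of 0 counts, 31 with 10 counts and 29 with 0.5 CPM. Leaving out a library gave 15 to 20. The fold change of Hoxc13 turned to -0.02 with library totals (-0.0157) and with upper-quartile scaling (-0.0209). With a library left out, fold changes spanned -0.57 to 0.50 for Hoxb9, -0.50 to 1.71 for Hoxb13, -2.47 to -0.90 for Hoxc4, 0.67 to 1.96 for Hoxc12, -0.55 to 1.04 for Hoxc13, -1.01 to 0.81 for Hoxd1 and -0.37 to 0.048 for Hoxd13. The log2 ratio of the summed level spanned -0.28 to 0.41, and was -0.02 with library totals and with upper-quartile scaling. Where a library was left out, the lone library of its group was assumed to vary like the other group. Of the 7 tested Hox genes, 2 did not overlap between groups, beside 11.6% (higher) and 12.7% (lower) of all tested genes, and 3 with library totals, which added Hoxd13. Depth limits what can be said of the 31 Hox genes that were not tested.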
